A study of Mus musculus with 2 samples.

Results

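Glycogen synthesis and breakdown was followed through 9 genes picked by name from the 46095 genes of the count table: Ugp2, Gyg, Gys1 and Gbe1, which build the polymer, Pygl, Pygb and Pygm, which take it apart, and Ppp1r3b and Ppp1r3c, whose products bring protein phosphatase 1 (PP1) to it. The study asked what MALAT1, a nuclear long noncoding RNA, does in the formation of adipocytes. C3H10 cells, a mouse embryonic mesenchymal line recorded under strain C57BL/6, received 100 nM of antisense oligonucleotide (ASO) by RNAiMAX and were then taken to day 6 of differentiation. One group received the negative control ASO (ASO NC) and the other an ASO against MALAT1 (ASO MALAT1), with 1 RNA-seq library each. Both groups were therefore transfected and both were induced with IBMX, dexamethasone, troglitazone and insulin, followed by insulin alone. The study used a pair of ASOs against MALAT1, and which of them was sequenced is not given in the sources used here.

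Glycogen is a branched polymer of glucose. UDP-glucose is made by UDP-glucose pyrophosphorylase, a primer is laid down by glycogenin, the chain is extended by glycogen synthase and branches are set by the branching enzyme, while phosphorylase releases glucose 1-phosphate. PP1, held on the particle by its targeting subunits, dephosphorylates both synthase, which becomes more active, and phosphorylase, which becomes less active. Muscle and liver hold the main stores, and adipocytes keep a small pool that turns over with feeding and insulin.

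In the MALAT1-knockdown library, Pygl (liver-type phosphorylase), Gbe1 (branching enzyme) and Ppp1r3c (a PP1 targeting subunit) fell to between 29.2% and 45.2% of their control levels. Gys1, the main synthase gene of these cells, stood at 73.6% of control, and Ugp2 and Pygb stood at 95.5% and 98.4%. Of the 9 genes, 7 had the 10 counts over both libraries that the test required. Of these, 3 were called lower and 0 higher at an adjusted p under 0.05 and at least 2-fold, against 4.09% of all 17356 genes tested that were called lower and 2.19% that were called higher. The median log2 fold change of the 7 genes was -0.44, beside -0.0029 over all genes tested. Because the RNA came from whole cultures, fewer cells of a type and less RNA per cell cannot be told apart.

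To show the sequence in front of the genes that fell, and of a related gene that did not pass the test, the bases upstream of the start site were taken from RefSeq (GRCm38.p6) for Pygl, Gbe1, Ppp1r3c and Pygb. Of the 9 genes, 8 had an entry, and Ppp1r3b was the gene without one. Each sequence is written 5′ to 3′ on the gene's own strand and ends before the first base that GENCODE M21 places in an exon of that gene. Capitals mark matches, on either strand, to the motifs searched.
Pygl, minus strand, chr12:70227684-70227933: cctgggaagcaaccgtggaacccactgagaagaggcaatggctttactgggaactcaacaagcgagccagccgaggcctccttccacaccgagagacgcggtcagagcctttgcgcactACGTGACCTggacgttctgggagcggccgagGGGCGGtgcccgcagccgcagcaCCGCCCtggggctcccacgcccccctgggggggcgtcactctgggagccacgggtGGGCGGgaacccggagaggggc
Gbe1, plus strand, chr16:70313699-70313948: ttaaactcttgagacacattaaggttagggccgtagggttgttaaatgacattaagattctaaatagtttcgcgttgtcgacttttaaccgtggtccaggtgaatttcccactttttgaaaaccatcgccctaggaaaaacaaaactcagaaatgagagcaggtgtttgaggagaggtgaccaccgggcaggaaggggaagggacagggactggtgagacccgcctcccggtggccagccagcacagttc
Ppp1r3c, minus strand, chr19:36736654-36736854: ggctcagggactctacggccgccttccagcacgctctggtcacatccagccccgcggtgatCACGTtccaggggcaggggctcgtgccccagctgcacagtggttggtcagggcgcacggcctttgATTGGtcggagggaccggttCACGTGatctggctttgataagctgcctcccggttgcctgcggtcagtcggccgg
Pygb, plus strand, chr2:150786546-150786734: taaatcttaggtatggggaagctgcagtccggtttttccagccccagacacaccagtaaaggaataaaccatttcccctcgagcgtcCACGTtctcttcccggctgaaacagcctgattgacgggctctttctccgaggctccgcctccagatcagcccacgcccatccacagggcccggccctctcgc

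The core promoter motifs searched were the TATA box with the letters TATAAA, the CCAAT box, and the GC box, to which factors of the Sp family bind, with the letters GGGCGG. Further motifs of regulated promoters were the E-box, written CACGTG, the core of the hypoxia response element, written ACGTG, and the half-site of nuclear receptors, written AGGTCA. The last motif was that of C/EBP factors, written TTGCNNAA. All were searched on both strands in the 250 bases upstream of the RefSeq start, and every CACGTG also counts as ACGTG. The Pygl window held 3 GC boxes, whose first bases lay 100, 77 and 22 bases before the start, together with an ACGTG at 131 and a reversed AGGTCA at 128 that overlaps it. The Ppp1r3c window held an E-box at 104, a further ACGTG match at 189 and a reversed CCAAT at 124. The Pygb window held 1 reversed ACGTG at 163. The Gbe1 window matched none of the letters searched.

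Among the 32851 RefSeq windows of the same length, 32.7% held a GC box, 33.8% CCAAT, 16.6% ACGTG, 14.0% AGGTCA, 12.4% TATAAA, 9.56% TTGCNNAA and 6.02% the E-box. No motif was found in the windows of all 3 genes that fell. The share of G and C was 69.2% for Pygl, 64.4% for Ppp1r3c, 60.0% for Pygb and 48.8% for Gbe1, where the median window had 52.4%. In GENCODE M21 the Pygl window lies within the span of the gene, since a longer transcript starts further upstream.

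The libraries held 58147539 counts for the control and 61653549 for the knockdown, so that 3 counts, the floor used for a gene at 0, correspond to 0.0516 and 0.0487 CPM (counts per 1e6 reads counted). Malat1 (chr19:5795690-5802672), the targeted RNA, had 170402 counts in the control library and 45396 in the knockdown library, which is 24.7% of control. All 15 adipocyte markers were below 0 on the log2 scale, 12 of them were called lower, the median was -1.23, and their summed level went from 8484 to 3738 CPM. Fabp4, the fatty acid binding protein, had 151625 and 63240 counts. Lpl, lipoprotein lipase, had 51462 and 21392 counts, and Plin4, a lipid droplet coat protein, 46134 and 39382. The 12 fibroblast and preadipocyte markers, led by Fn1, Col1a2 and Vim, had a median of 0.21 over 11 tested and a summed level of 19667 and 21540 CPM, with Cd34 (19 and 69 counts) the 1 gene called, higher. Within this list, Pdgfra had 28120 and 32730 counts and Ly6a 20949 and 27424, while Thy1 had 108 and 163 and Dlk1 had 0 in both libraries. These 4 genes were named after their values were seen. Both libraries thus carried adipocyte markers and general fibroblast genes, but not every preadipocyte marker of the list. The labels give the cell line and the ASO, not the cell types. The part of the lower adipocyte markers in the glycogen results was not tested.

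Markers of the other tissues that store glycogen or hold a phosphorylase isoform were low or at 0, apart from Cyp2e1 of the hepatocyte list. Of 11 skeletal muscle markers, 7 were at 0 in both libraries, Myod1, Myog and Acta1 among them, 2 were tested, and the list summed to 0.970 CPM in the control and 1.58 CPM in the knockdown, with 0 called. Nearly all of that came from Tnnt3, with 29 and 47 counts, and Mylpf, with 24 and 47 counts, genes of fast muscle fibres that both had more counts in the knockdown. Mylpf had a log2 fold change of 0.85 (0.12 to 1.64), which passed the adjusted p but not the 2-fold limit. Of 8 hepatocyte markers 3 were tested and 0 called. Cyp2e1 alone gave 52.9 of their 53.9 CPM in the control and 34.2 of 34.6 CPM in the knockdown, while Alb, the albumin gene, had 33 and 20 counts. The 7 neural and glial markers summed to 3.57 and 3.48 CPM, with Tubb3 (6 and 24 counts) and Mbp (14 and 37 counts) called higher. Cd34, Myod1, Myog, Acta1, Tubb3 and Mbp were named after their values were seen.

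Among the genes that build the chain, Ugp2 (chr11:21321138-21371201, minus strand) encodes the enzyme that makes UDP-glucose. It had 11510 counts in the control library and 11838 in the knockdown library, or 199 and 191 CPM after scaling. Its exons share 78 bases with Gm12043 on the opposite strand. The scaled level was slightly lower in the knockdown, with a log2 fold change of -0.07 (95% counting interval -0.10 to -0.03), a Benjamini-Hochberg adjusted p of 0.00149 (exact binomial test), and a size far under 2-fold. At this depth, 48.1% of all genes tested passed the adjusted p alone in either direction, so that a pass without the fold says little. Of the 7 glycogen genes tested, 6 passed in that way, all of them lower. Over all 17356 genes tested, 4139 passed as lower.

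Gyg (chr3:20122084-20155317, minus strand), glycogenin, had 5274 counts in the control library and 4632 in the knockdown library, or 91.4 and 74.6 CPM. The knockdown library was the lower one, at 81.6% of control, a log2 fold change of -0.29 (-0.35 to -0.24). Gys1 (chr7:45434844-45456619, plus strand), the synthase isoform of muscle, fat and most other tissues, had 14234 counts in the control library, the most of the 9 genes, and 11279 in the knockdown library. Its level went from 247 to 182 CPM, a log2 fold change of -0.44 (-0.48 to -0.41), and 15.5% of all genes tested had a lower value. Gys1 passed the adjusted p but not the 2-fold limit or a 1.5-fold limit. Its exons share 310 bases with Ruvbl2 on the opposite strand, which had 2889 and 3144 counts. The library kit keeps the strand of the RNA, but whether the counting used it is not given in the sources used here.

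Gbe1 (chr16:70313949-70569716, plus strand), the enzyme that sets the branches, had 3124 counts in the control library and 1519 in the knockdown library. The knockdown library was clearly the lower one, and the level went from 54.1 to 24.4 CPM. Gbe1 fell by 1.15 on the log2 scale (95% counting interval -1.24 to -1.06, exact binomial test with Benjamini-Hochberg adjusted p = 2.95e-150), to 45.2% of control, and 4.85% of all genes tested had a lower value. Set against Gys1 in the same library, which needs no scaling between libraries, Gbe1 went from 0.219 to 0.135 counts per Gys1 count, a ratio of 0.614 (95% exact conditional interval 0.574 to 0.656). The branching enzyme was thus lower relative to the synthase as well as in CPM. Both values rest on the same Gbe1 counts, so the ratio is no separate support for the fall.

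**Figure D1:**
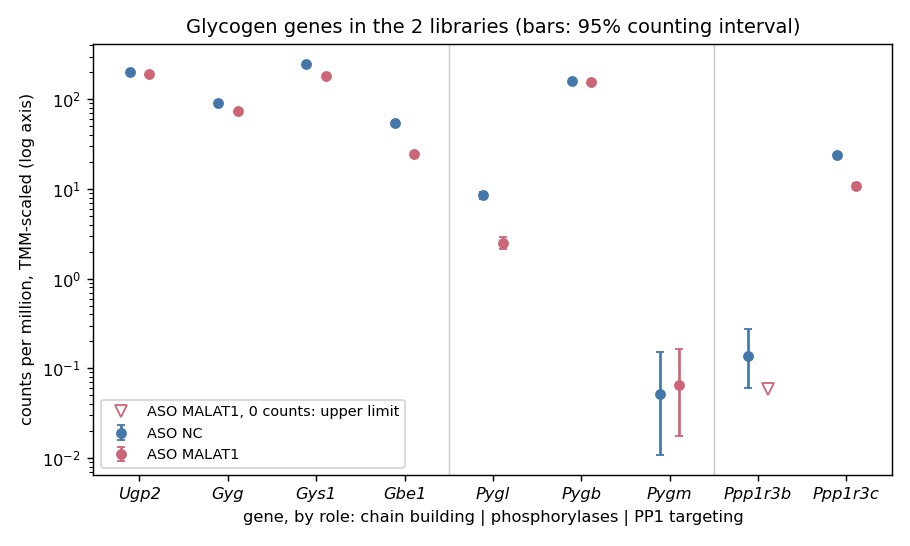
Level of each of the 9 glycogen genes in TMM-scaled CPM (log axis) for ASO NC (blue) and ASO MALAT1 (red), with 95% counting intervals and with the upper limit drawn as an open triangle for a count of 0. The red points of Gbe1, Pygl and Ppp1r3c lie clearly under the blue ones (54.1 and 24.4, 8.54 and 2.49, 24.0 and 10.8 CPM), those of Ugp2 and Pygb nearly level with them, and Pygm and Ppp1r3b lie near the floor.

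The phosphorylases are encoded by 3 genes named for liver, brain and muscle. Pygl (chr12:70190811-70231488, minus strand), the liver type, had 493 counts in the control library and 155 in the knockdown library, or 8.54 and 2.49 CPM. Of the 7 genes tested it had both the fewest counts and the largest fall. The log2 fold change was -1.77 (95% counting interval -2.05 to -1.51, exact binomial test with Benjamini-Hochberg adjusted p = 3.44e-46), the level was 29.2% of control, and 2.21% of all genes tested had a lower value.

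Pygb (chr2:150786735-150831758, plus strand), the brain type, had 9239 counts in the control library and 9792 in the knockdown library, or 160 and 158 CPM. The scaled levels were nearly equal, with a log2 fold change of -0.02 whose counting interval ran from -0.06 to 0.02, and the exact binomial test gave a Benjamini-Hochberg adjusted p of 0.397. A difference of more than 0.06 on the log2 scale thus lies outside the counting error, which takes no account of variation between cultures.

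Pygm (chr19:6384399-6398459, plus strand), the muscle type, had 3 counts in the control library and 4 in the knockdown library (95% Poisson intervals 0.619 to 8.77 and 1.09 to 10.2 counts). Both are near the floor and the gene was not tested. Its neighbours on chromosome 19, 3 on either side, also held few counts in both libraries, from 0 to 275. The highest was Sf1, a splicing factor gene, with 275 and 143 counts, and Men1 on the far side of it had 18 and 125. These neighbours were looked at after the Pygm counts were seen, and why the stretch holds few counts was not tested.

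Per kilobase of exon, which allows genes to be compared, Pygb made up 96.4% of the phosphorylase RNA of the control library and 98.8% of that of the knockdown library. Pygl made up 3.59% and 1.09%, and Pygm 0.0468% and 0.0603%. In plain counts, Pygl was 5.06% of the family in the control (95% exact Clopper-Pearson interval 4.64 to 5.52). In the knockdown it was 1.56% (1.32 to 1.82). The intervals do not overlap, but they cover counting error only and not variation between cultures. The ratio of Pygl to Pygb counts in the knockdown was 0.297 (0.245 to 0.357) of that in the control. Since Pygb dominated, the family's summed level moved little, from 169 to 160 CPM, a log2 difference of -0.07. Synthase to phosphorylase, as Gys1 counts over the summed phosphorylase counts, went from 1.46 to 1.13, or 0.775 (0.747 to 0.805) of control.

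**Figure D2:**
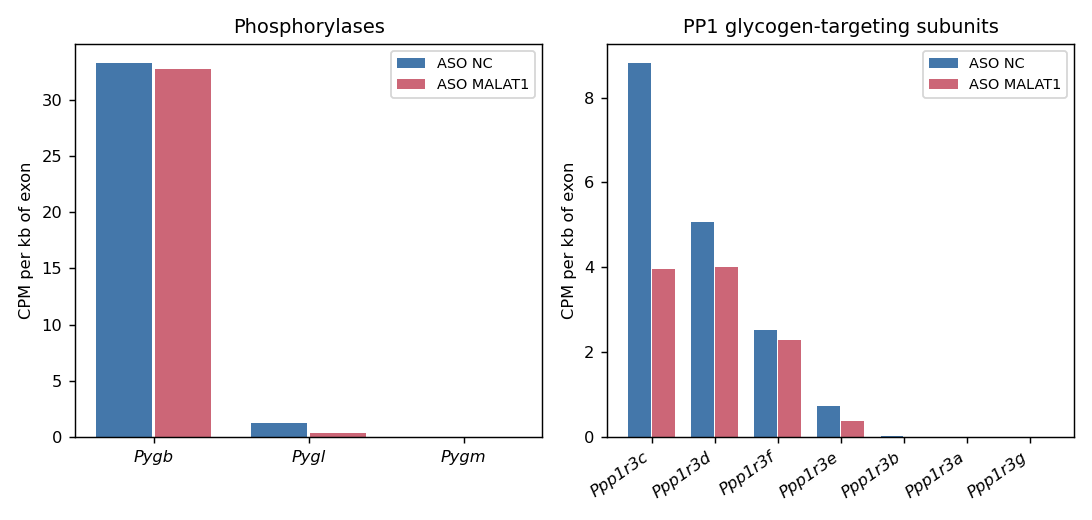
CPM per kilobase of exon for the 3 phosphorylase genes (left) and the 7 PP1 glycogen-targeting subunits (right), for ASO NC (blue) and ASO MALAT1 (red), 1 library per bar and no error bar. Pygb stands at 33.3 and 32.8 beside 1.24 and 0.362 for Pygl, and Ppp1r3c is the tallest subunit in the control (8.82) but not in the knockdown (3.96), where Ppp1r3d stands level with it.

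Both PP1 targeting genes of the set had fewer counts in the knockdown library, at very unequal depth. Ppp1r3c (chr19:36731731-36736653, minus strand), also called PTG, which binds glycogen, PP1, synthase and phosphorylase, had 1387 counts in the control library and 671 in the knockdown library, or 24.0 and 10.8 CPM. The knockdown library was again the lower one by more than 2-fold. Ppp1r3c fell by 1.15 on the log2 scale (95% counting interval -1.29 to -1.02, exact binomial test with Benjamini-Hochberg adjusted p = 1.05e-67), to 44.9% of control, and 4.76% of all genes tested had a lower value. Ppp1r3b (chr8:35375739-35388139, plus strand), the subunit best known from liver, had 8 counts in the control library and 0 in the knockdown library, and was too low to be tested. Set against the floor of 3 counts in the knockdown library, the 8 control counts give a level 2.87-fold lower in the knockdown. That figure takes the 8 counts as exact and is not a lower limit. With counting error included, the interval of the ratio starts at 1.84.

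The family holds 5 further subunits, of which Ppp1r3d (953 and 811 counts), Ppp1r3f (748 and 731) and Ppp1r3e (107 and 58) were tested. None of them was called at 2-fold, but all were below 0 on the log2 scale. The values were -0.34 (-0.48 to -0.20) for Ppp1r3d, -0.14 (-0.29 to 0.01) for Ppp1r3f and -0.98 (-1.48 to -0.52) for Ppp1r3e. Ppp1r3e was thus just short of the 2-fold limit and was lower at 1.5-fold. A larger share within the family is therefore not a higher level. Ppp1r3a, the striated muscle subunit, had 4 counts in each library and Ppp1r3g had 0. Per kilobase, Ppp1r3c made up 51.4% of the family's RNA in the control library and 37.3% in the knockdown library, while Ppp1r3d went from 29.5% to 37.6% and Ppp1r3f from 14.7% to 21.5%. In plain counts the Ppp1r3c share was 43.2% (95% exact Clopper-Pearson interval 41.5 to 45.0) and 29.5% (27.6 to 31.4). The summed level of the 7 subunits went from 55.6 to 36.6 CPM, a log2 difference of -0.60. Ppp1r3a, Ppp1r3d, Ppp1r3e, Ppp1r3f and Ppp1r3g were named after their values were seen.

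The order of the levels per kilobase was nearly the same in both libraries. In the control it ran from Ugp2 (65.0 CPM per kilobase) over Gys1 (51.5), Gyg (39.0), Pygb (33.3), Gbe1 (10.1), Ppp1r3c (8.82) and Pygl (1.24) to Ppp1r3b (0.0223) and Pygm (0.0162). The last pair did not differ beyond their counting intervals and all other neighbours did. In the knockdown, Ugp2 (62.1) and Gys1 (37.9) again led, followed by Pygb (32.8) and Gyg (31.8), whose intervals overlapped, then by Gbe1 (4.57), Ppp1r3c (3.96), Pygl (0.362), Pygm (0.0200) and Ppp1r3b (0). The 4 most abundant genes are thus the UDP-glucose, priming, synthase and brain-type phosphorylase genes in either condition, and the 3 genes called lower stand below them.

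**Figure D3:**
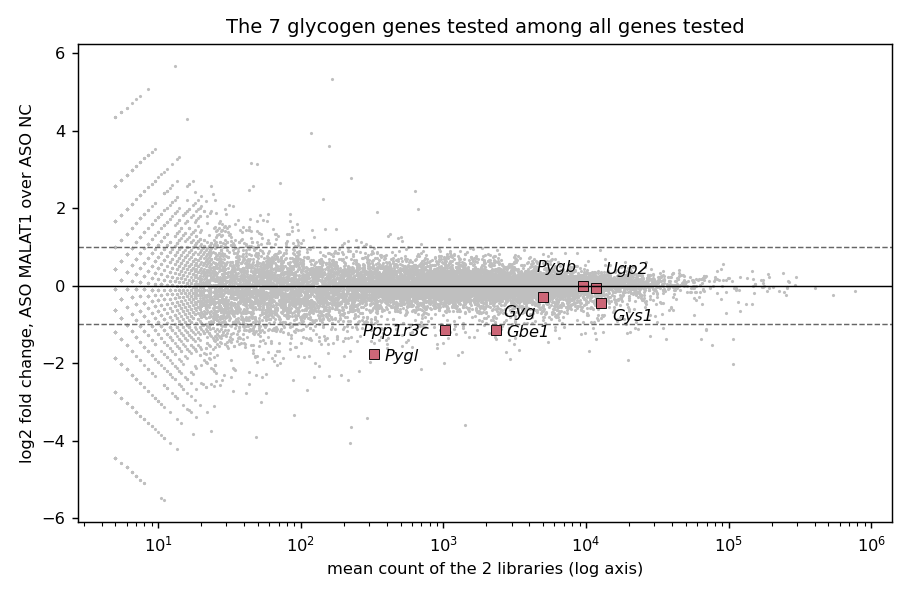
Log2 fold change of ASO MALAT1 over ASO NC against the mean count of both libraries (log axis) for the 17356 genes tested (grey) and the 7 glycogen genes tested (red squares), with dashed lines at 2-fold. Pygl (-1.77), Gbe1 (-1.15) and Ppp1r3c (-1.15) lie under the lower line, in a range of counts where few grey points do, and the other 4 lie between 0 and -0.44.

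Because low counts scatter more, the calls were also read against genes of like abundance. Pygl was the 1 glycogen gene with a mean of 100 to 1000 counts, a range in which 2.67% of the genes tested were called lower. The other 6 had a mean of at least 1000 counts, of which Gbe1 and Ppp1r3c were called, and 0.739% of the genes in that range were called lower. With a 1.5-fold limit the same 3 genes were called, against 7.26% of all genes tested called lower. The plot of fold change against mean count shows the same 3 genes under the main cloud.

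Of 30 other genes of the pathway, 27 were tested, 2 were called lower, 0 higher, and their median log2 fold change was -0.08. Over all 17356 genes tested, 4.09% were called lower and 2.19% higher, so 2 of 27 is too few to set apart from that share. At 1.5-fold, 5 were called lower and 0 higher, against 7.26% of all genes tested called lower. Among those called was Gys2, the liver isoform of glycogen synthase, with 33 counts in the control library and 2 in the knockdown library, a control to knockdown ratio of 17.8 with a counting interval of 4.54 to 153. Its part of the synthase RNA was small in both libraries, at 0.00418 of the Gys1 level per kilobase in the control and 0.000320 in the knockdown.

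A few other enzymes and regulators were named whatever their values. Hk2, the hexokinase typical of muscle and fat, had 7466 counts in the control library and 5521 in the knockdown library, and a log2 fold change of -0.54 (-0.59 to -0.49), the third lowest value among the pathway genes with over 1000 counts after Gbe1 and Ppp1r3c. Hk2 did not pass the 2-fold limit. The glycogen synthase kinases stood close to their control level, Gsk3a with 4830 and 4833 counts (-0.11, -0.16 to -0.05) and Gsk3b with 7884 and 8299 counts (-0.03, -0.08 to 0.01). Stbd1, which binds glycogen and links it to membranes, had 77 and 85 counts and a log2 fold change of 0.04 (-0.43 to 0.50), an interval too wide to show a small difference.

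Phosphoglucomutase interconverts glucose 1-phosphate and glucose 6-phosphate. The genes listed as Pgm1 and Pgm2 went in opposite directions, both by less than 1.5-fold. The gene listed as Pgm2 had 12246 and 10043 counts and a log2 fold change of -0.39 (-0.43 to -0.35). The gene listed as Pgm1 had 1499 and 1838 counts and a log2 fold change of 0.19 (0.09 to 0.29). These mouse symbols were exchanged between annotation releases, so that which enzyme each name stands for in the table is not known. The values therefore give no direction for this step. The catalytic subunits of PP1 (3 genes) and phosphorylase kinase (5 genes) had 0 called, with medians of 0.02 and -0.0035 on the log2 scale. The laforin, malin, lysosomal and binding genes (4) had 0 called with a median of -0.25. With 4.09% of all genes tested called lower and 2.19% higher, 0 called in groups this small says little. Within these groups, Phkg1, a catalytic subunit of phosphorylase kinase, had 293 counts in the control library and 187 in the knockdown library, a log2 fold change of -0.75 (-1.03 to -0.48). Epm2a, which encodes the glycogen phosphatase laforin, had 139 and 90 counts and a log2 fold change of -0.73 (-1.13 to -0.34). Both were lower at the 1.5-fold limit but not at 2-fold. G6pc, glucose 6-phosphatase of liver and kidney, had 0 counts in both libraries. Phkg1, Epm2a and G6pc were named after their values were seen.

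**Figure D4:**
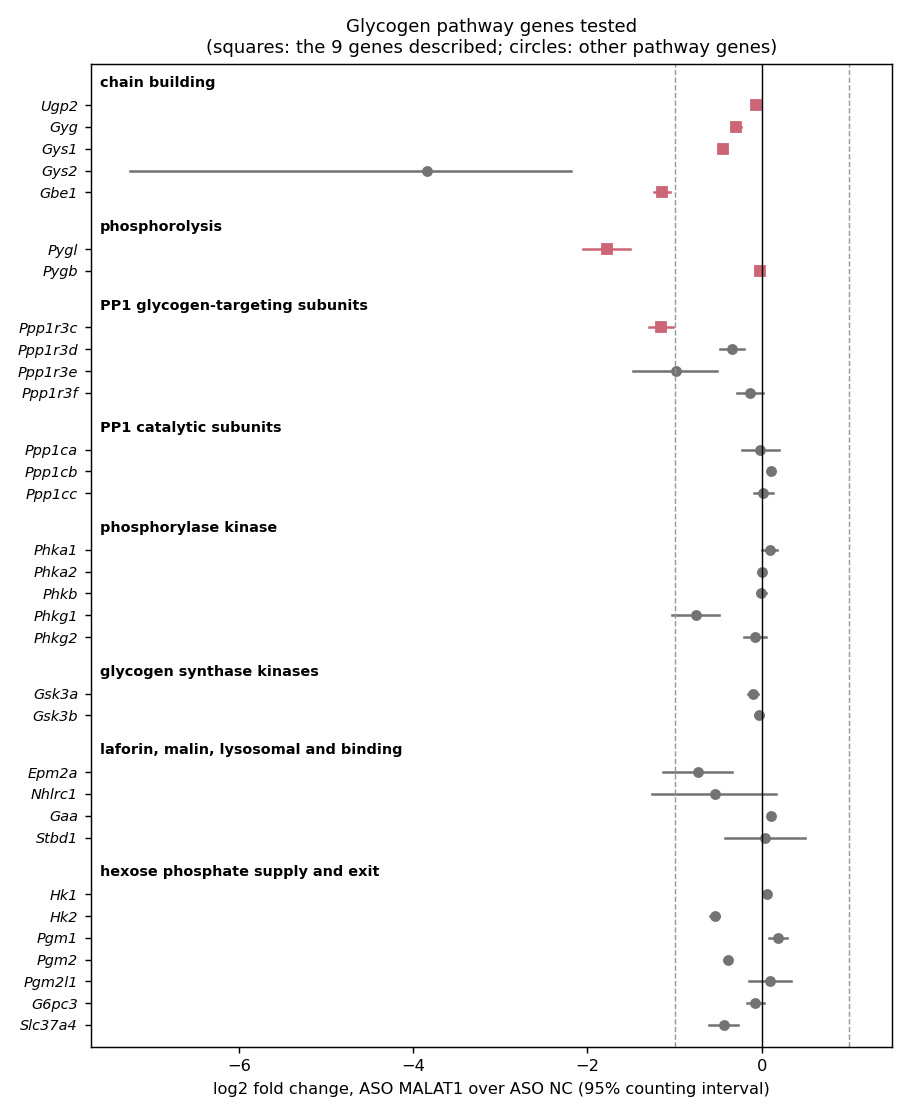
Log2 fold change of ASO MALAT1 over ASO NC with its 95% counting interval for the glycogen pathway genes tested, grouped by role, with the 7 of the 9 genes that were tested as squares, 25 others as circles and dashed lines at 2-fold. Gys2 (-3.84), Pygl (-1.77), Ppp1r3c (-1.15) and Gbe1 (-1.15) lie beyond the lower line, no gene lies beyond the upper one, the glycogen synthase kinases and PP1 catalytic subunits lie near 0, and Phkg1 (-0.75) stands apart from the rest of phosphorylase kinase.

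With 1 library per group there was no replicate check. What the exact test compares is therefore a pair of libraries and not the conditions, and its intervals cover counting error only. If cultures varied with a biological coefficient of variation of 0.2, edgeR's exact test with that preset value and Benjamini-Hochberg adjustment left Pygl (adjusted p = 0.0168) and gave adjusted p = 0.240 for Gbe1 and adjusted p = 0.243 for Ppp1r3c. At a coefficient of 0.4 it left none of them.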

How the data were processed

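RNA-seq was analysed from 1 library of control C3H10 cells (ASO NC) and 1 of MALAT1-knockdown cells (ASO MALAT1). Total RNA was depleted of rRNA and made into strand-keeping libraries, and the authors deposited raw read counts per gene symbol, whole numbers without normalization. HISAT2 and GRCm38 are named in the submitters' processing notes. The counting tool, annotation, strand setting and treatment of reads with several matches are not given in the sources used here.

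Library sizes were scaled by TMM (edgeR 4.0.16, R 4.3.3). Genes with at least 10 counts over both libraries were tested (17356 of 46095). Log2 fold changes used a prior count of 0.5. For every gene, the split of its reads between the libraries was set against the scaled sizes in an exact binomial test, two-sided, with 95% Clopper-Pearson limits (Python 3.11.15 with scipy 1.17.1). P-values were adjusted after Benjamini-Hochberg across the genes tested, and calls needed an adjusted p under 0.05 and a change of at least 2-fold. A quasi-likelihood test needs replicates and was not run. Nothing in the sources says whether the cultures were separate, and intervals and the floor of 3 counts cover counting error only, since reads are not independent molecules. The script was tested on data simulated with counting error alone and scaled by library totals, so the simulation does not address variation between cultures.

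Levels per kilobase used the union of exons of GENCODE M21 (GRCm38), which also gave positions and overlaps. Near-identical copies were searched at 95% identity or more across 200 aligned bases or more (BLAST+ 2.17.0), and Ruvbl2, over its overlap with Gys1, was the 1 gene found. Promoters came from RefSeq (GRCm38.p6).

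The genes and lists were chosen with earlier results of these data known. The rule for names took the 9 genes, the pathway genes called at 2-fold, Pgm1, Pgm2, Gsk3a, Gsk3b, Stbd1 and Hk2, Malat1, and at most 3 genes with the most counts from the glycolysis and marker lists. Some genes under this rule are not reported here. Exceptions are said to be named after their values were seen. Alternatives were library totals, DESeq2 1.42.0 size factors, upper-quartile factors, a prior count of 2, no filter, at least 10 counts in each library, edgeR's exact test with a preset coefficient of variation, and a 1.5-fold or no fold limit. The longest transcript as the length was added after the data were seen.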

Additional observations from a re-analysis of the deposited data

How the results depend on the processing

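In 28 repeats of the log2 fold changes of the 7 glycogen genes tested, with library totals, DESeq2 size factors, upper-quartile factors and a prior count of 2, 0 changed direction and 0 changed call, and scaling moved the median of all genes by at most 0.022. The called gene nearest to the 2-fold line was Gbe1 at -1.15. Shifts of this size could not alter a call, so the unchanged calls are no support. The count of 3 glycogen genes called became 1 and 0 in edgeR's exact test with a preset coefficient of variation of 0.2 and 0.4, and 6 with no fold limit. No filter gave 4, by adding Ppp1r3b. For the other pathway genes, 2 called became 1 with at least 10 counts in each library, 1 and 0 with a preset coefficient of 0.2 and 0.4, 5 at 1.5-fold and 15 with no fold limit. Over all genes tested, 1090 called became 562 with at least 10 counts in each library, 667, 117 and 1 with a preset coefficient of 0.1, 0.2 and 0.4, 2019 at 1.5-fold and 8346 with no fold limit. Without length, the Pygl share was 5.06% and 1.56% and the Ppp1r3c share 43.2% and 29.5% in control and knockdown, and with the longest transcript the Pygl share was 6.21% and 1.93%. These shifts follow from how each alternative is built. The fall in each share kept its direction. That outcome was all but fixed, because Pygl fell more than Pygb and Ppp1r3c more than the other subunits tested. It is therefore no support for the falls.

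No paired analysis was possible because each group has 1 library, and for the same reason no replicate was left out. At this depth a count of 0 allows up to 0.0516 CPM in the control and 0.0487 CPM in the knockdown, and the counts of Pygm and Ppp1r3b were near that floor. Gapdh and Ppp1ca, which most cells use, had 965 and 870 and 351 and 374 counts, few for such genes. Both were named after their values were seen, and the cause was not tested.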

Other observations

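The glycolysis genes, which take up the glucose 6-phosphate that glycogen can supply, were mostly a little lower in the knockdown library. Of 14 genes tested, 1 was called lower and 0 higher, 13 were below 0 on the log2 scale, and the median log2 fold change was -0.27. Among all 17356 genes tested, 4.09% were called lower, 2.19% were called higher and 8744 were below 0. With 14 genes, 1 call is too few to set apart from the share called lower. Aldoa, an aldolase, had 142533 counts in the control library and 97000 in the knockdown library, a log2 fold change of -0.66 (95% counting interval -0.67 to -0.65). Ldha, a lactate dehydrogenase, had 96163 and 81911 counts and a log2 fold change of -0.34 (-0.35 to -0.32), and Pkm, pyruvate kinase, had 117218 and 117503 counts and -0.10 (-0.11 to -0.09). None of these passed the 2-fold limit. The gene called was Eno3, the enolase isoform of muscle, with 532 and 53 counts and a log2 fold change of -3.42 (-3.87 to -3.02), named after its values were seen. Eno1, the widely expressed enolase, had 21932 and 22622 counts and a log2 fold change of -0.06 (-0.09 to -0.04), and was likewise named after its values were seen.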
